A study of Mus musculus with 12 samples.

Results

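The 10 genes described here mark or regulate stem cells of the intestinal crypt: Lgr5, Olfm4, Ascl2, Smoc2, Axin2, Sox9, Rnf43, Znrf3, Lrig1 and Tnfrsf19. They were chosen by name and are 10 of the 48526 genes counted. All 10 were found by matching Ensembl identifiers, without their version, to mouse gene symbols. Whole epithelium of the proximal small intestine was taken from 4 female mice aged 3 months, and each animal gave 3 libraries. The input library is RNA of the lysate, and the other libraries are RNA bound by J2 or by K1, which are antibodies that recognise double-stranded RNA. In 2 mice the acetyltransferase genes Kat2a and Kat2b were deleted (double knockout, DKO) with 4 daily intraperitoneal injections of tamoxifen at 100 mg/kg, and the 2 control mice received the ethanol and corn oil vehicle. Tissue was taken 2 days after the last dose, so deletion and tamoxifen exposure changed together and cannot be told apart here. The Cre driver, the floxed alleles and the strain were not given in the sources used here, and no pulldown with a control antibody is used here.

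Crypt base columnar cells divide at the bottom of the crypt and renew the epithelium. They depend on Wnt signals from neighbouring Paneth cells and from mesenchyme, and R-spondins strengthen those signals through Lgr receptors. Rnf43 and Znrf3 are membrane ubiquitin ligases that remove Wnt receptors, and Axin2 is a scaffold of the complex that degrades beta-catenin. Both kinds of protein are themselves induced by Wnt and act as feedback inhibitors.

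Gene-assigned counts were 10307281 to 11474107 per input library and 13308021 to 16139531 per control pulldown, but 2220291 to 5826361 per DKO pulldown. The DKO replicates also differed more: the Pearson correlation of log2 CPM (counts scaled to library size) across genes between replicates was 0.839 in DKO J2 and 0.918 in DKO K1, against 0.986 to 0.993 in the other groups. Reads aligned to several places made up 15.8% to 46.7% of those listed in the DKO pulldowns and 5.54% to 6.56% in the control pulldowns. The mitochondrial share of counts was 8.76% to 18.6% in the former and at most 2.77% in the latter. In input, Kat2a fell from 222 and 228 counts to 84 and 148 (log2 fold change -0.88, adjusted p = 0.0205), and Kat2b fell from 359 and 343 to 118 and 114 (-1.51, adjusted p = 6.31e-04). These adjusted p-values, and those of single genes below, are from the quasi-likelihood test of edgeR with Benjamini-Hochberg adjustment over all genes tested, at a threshold of 0.05. Epcam and Cdh1, which mark epithelium, stood at 607 CPM or more in every input library, and Ptprc of leukocytes at 27.8 CPM or less. Col1a1 of fibroblasts was at 1.98 CPM or less and Pecam1 of endothelium at 2.38 CPM or less.

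Before any change between genotypes, the members differed widely in level. Per kilobase of the longest coding transcript, control input held 137 CPM per kb of Olfm4 ± 1.30 (SD, n = 2). The next were Rnf43 at 18.4 ± 1.2 and Axin2 at 17.5 ± 0.479 CPM per kb, whose replicates overlapped, then Smoc2 at 13.4 ± 0.243. Sox9 at 10.4 ± 0.890 and Lrig1 at 10.1 ± 0.371 CPM per kb overlapped as well, as did Ascl2 at 3.45 ± 0.570 and Lgr5 at 3.08 ± 0.205. Znrf3 at 2.61 ± 0.308 and Tnfrsf19 at 0.539 ± 0.0541 CPM per kb were lowest and each stood apart from its neighbour. This order, and which genes stood apart, holds only for the length used. All exons together cover 10264 bases for Lgr5 and 6951 for Smoc2, against 4714 and 2832 in the longest coding transcript. In DKO input this order changed. Rnf43 led at 19.5 ± 2.71 CPM per kb and overlapped with Olfm4 at 16.6 ± 8.26, which in turn overlapped with Axin2 at 16.0 ± 1.95. Lgr5, at 0.868 ± 0.247, then overlapped with Ascl2 at 0.852 ± 0.419 CPM per kb.

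In input RNA, 6 of the 10 stem cell genes were lower in DKO: Olfm4, Smoc2, Ascl2, Lgr5, Znrf3 and Lrig1. The fall was 8.23-fold for Olfm4 and 1.75-fold for Lrig1, with the other genes between. None of the 10 was higher. Among all 15088 genes tested, 35.9% were called in either direction and 17.1% were called lower. In 7 of the 10, Tnfrsf19 included, both DKO animals were below both controls, which held for 36.8% of all genes tested. The median log2 fold change was -0.87 over the 10 members and -0.00098 over all genes tested. In bulk RNA, fewer cells of a type and less RNA per cell cannot be told apart.

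**Figure D1:**
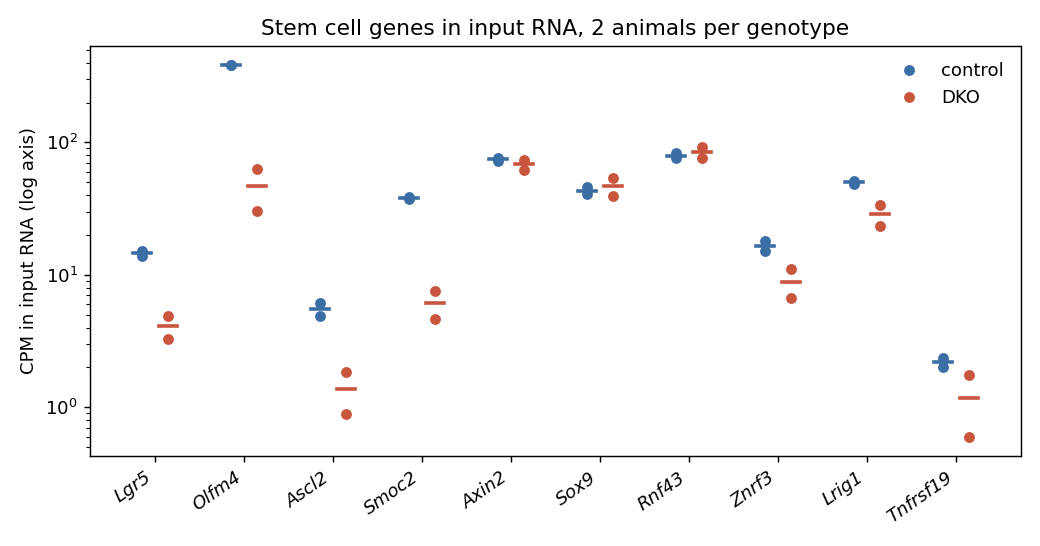
CPM in input RNA on a log axis for each of the 10 genes. Points are animals, 2 per genotype, and bars are group means. The DKO points of Olfm4, Smoc2, Ascl2 and Lgr5 lie far below the control points, whereas those of Axin2, Sox9 and Rnf43 overlap with control.

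The secreted proteins had the steepest falls. Olfm4, a glycoprotein secreted by crypt base cells (chr14:79984081-80023139 of GRCm38, plus strand), stood at 387 and 382 CPM in the control animals and at 30.2 and 62.9 CPM in the DKO animals. Both DKO values lay far below both control values, with the lowest in DKO replicate 1. Its log2 fold change was -3.04 (SE 0.31, adjusted p = 4.82e-04). Smoc2, a matricellular protein that binds calcium, was measured at 37.5 and 38.5 CPM in control against 4.66 and 7.55 CPM in DKO, again without overlap. Smoc2 fell by 2.63 on the log2 scale (SE 0.22, adjusted p = 2.51e-04).

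Of the receptors, Lgr5 binds R-spondins and is the classical marker of crypt base columnar cells (chr10:115450311-115587780, minus strand). Lgr5 had 150 and 182 counts in control input, or 13.8 and 15.2 CPM, and 33 and 56 counts in DKO, or 3.27 and 4.92 CPM. The groups did not overlap, and the log2 fold change was -1.82 (SE 0.25, adjusted p = 0.00149). Tnfrsf19, a receptor of the tumour necrosis factor family also known as Troy, had only 22 and 28 counts in control and 6 and 20 in DKO. Both DKO values were below control, but the log2 fold change of -0.86 (SE 0.47) did not pass the test (adjusted p = 0.189). It was -0.31 without DKO replicate 1 and -1.86 without DKO replicate 2. Leaving out an animal, here and below, left 1 library in its group. Such a fit holds no spread between animals of that genotype.

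The transcription factors parted. Ascl2, a basic helix-loop-helix factor that controls stem cell identity in the crypt (chr7:142966829-142969264, minus strand), had 53 and 74 counts in control and 9 and 21 in DKO. The log2 fold change was -1.99 (SE 0.37, adjusted p = 0.00533). Sox9, which stem, progenitor and Paneth cells express, stood at 40.5 and 45.7 CPM in control and at 39.2 and 54.2 CPM in DKO. These ranges overlapped, and the log2 fold change of 0.12 (SE 0.17) was not called (adjusted p = 0.621).

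Feedback inhibitors were split in the same way. Axin2 was at 75.8 and 72.9 CPM in the control animals and 62.4 and 74.2 CPM in the DKO animals, a log2 fold change of -0.12 (SE 0.13, adjusted p = 0.496). Rnf43 was at 75.8 and 82.9 CPM in the control animals and 92.4 and 75.9 CPM in the DKO animals, a log2 fold change of 0.08 (SE 0.14, adjusted p = 0.665). Both overlapped between genotypes. Scaling by library size alone moved the median of all genes by more than 0.1, to -0.13, and placed Sox9 at -0.0019 and Rnf43 at -0.056, both then just below 0.

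Znrf3, the partner of Rnf43 in function, went down from 164 and 214 counts to 68 and 126 (log2 fold change -0.88, SE 0.25, adjusted p = 0.0309). Lrig1, an inhibitor of ErbB receptors that marks a broader set of crypt base cells, stood at 51.5 and 48.9 CPM in control and 23.3 and 34.0 CPM in DKO (log2 fold change -0.81, SE 0.18, adjusted p = 0.0120). Neither gene overlapped between genotypes, but both calls were lost when all 12 libraries shared 1 fit. The Znrf3 call was lost too without control replicate 2 or without DKO replicate 1, with adjusted p up to 0.198 over the alternatives. Lgr5, Olfm4, Smoc2 and Ascl2 were called lower in all 10 alternatives. Their log2 fold changes were most negative without DKO replicate 2, at -2.15, -3.67, -3.03 and -2.63. They were least negative without DKO replicate 1, at -1.56, -2.60, -2.33 and -1.58. DKO replicate 1 was below DKO replicate 2 in CPM for all 6 genes that fell.

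Other genes of the crypt gave context to these falls. Of 16 other crypt base stem cell genes, 7 were lower and 3 higher in DKO input. Aqp4, a water channel, fell from 198 and 209 counts to 41 and 39 (log2 fold change -2.25), and the ion cotransporter gene Slc12a2 fell from 1585 and 1736 to 341 and 685 (-1.63). Cd44, a hyaluronan receptor, rose from 312 and 284 counts to 985 and 1018 (1.83, adjusted p = 1.85e-04). Thus the list did not move in 1 direction. Its median log2 fold change was -0.44.

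Of 18 proliferation genes, 16 were lower and none higher, with a median log2 fold change of -1.48. Mki67 fell from 2749 and 2576 counts to 518 and 689 (-2.07), and the kinase gene Aurkb and the cyclin gene Ccna2 fell by 1.99 and 1.97 on the log2 scale. Of 20 Wnt pathway components tested, 3 were lower and 2 higher. The lower ones included Wls, which carries Wnt proteins to the cell surface (-1.13), and the Wnt receptor gene Fzd5 (-0.86). The transcription factor gene Tcf7l2 rose (0.62).

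Of 6 Wnt target genes tested outside the members, Sp5 fell (-0.99) and the cyclin gene Ccnd2 rose (0.76), and the other 4 were not called. In the Notch pathway, 3 of 12 genes were lower and 2 higher: Lfng fell by 1.51 and Hes1 by 0.94 on the log2 scale, while the protease gene Adam10 rose (0.70).

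**Figure D2:**
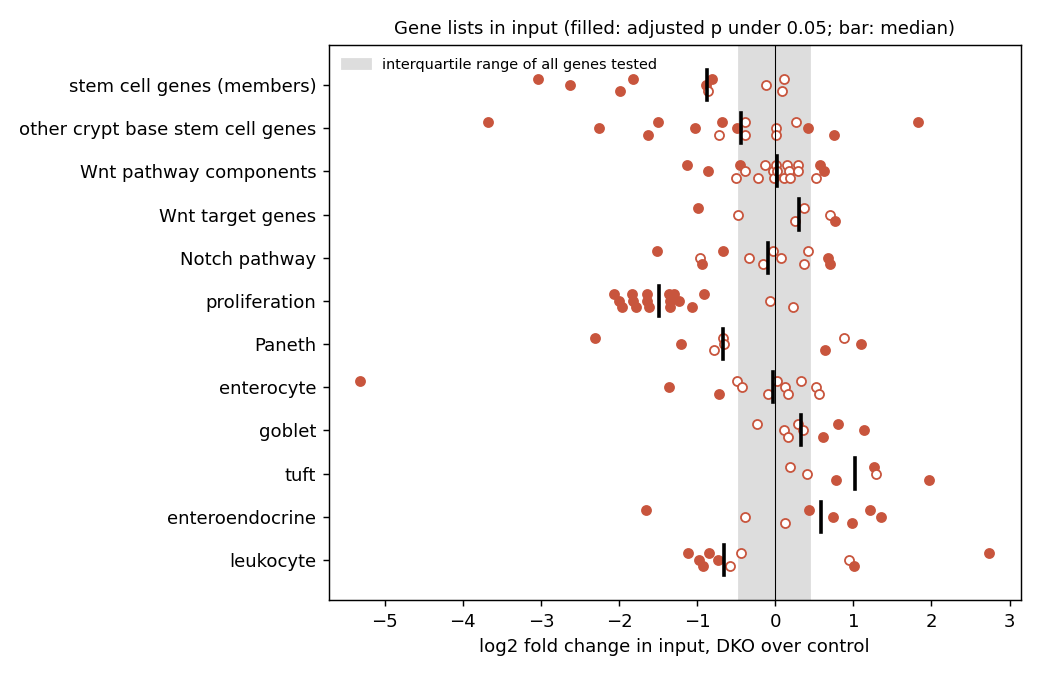
Log2 fold change in input, DKO over control, for the 10 members and 11 other gene lists. Each point is a gene, filled where the adjusted p was under 0.05, black bars are list medians, and grey covers the interquartile range of all genes tested. The medians of the members (-0.87) and of the proliferation list (-1.48) lie left of the grey band, whereas the Wnt component median (0.02) lies inside it.

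Markers of other cells were read in the same input libraries. The 8 Paneth markers summed to 3829 to 4379 CPM in control and 1488 to 3215 CPM in DKO, here scaled by library size alone, with all 8 detected in both and no overlap. The 7 tuft cell markers summed higher in DKO, at 152 to 160 CPM with none at 0, than in control, at 68.4 to 76.4 CPM with Il25 at 0. So did the 8 enteroendocrine markers, all detected, at 267 to 317 CPM in DKO and 202 to 220 CPM in control. The mesenchyme and epithelium sums overlapped between genotypes. The 13 mesenchyme markers summed to 7.66 to 13.6 CPM in control, with Lum, Foxl1 and Rspo3 at 0, and to 12.3 to 16.5 CPM in DKO, with Foxl1 and Rspo3 at 0. The 6 epithelial markers summed to 4333 to 4395 CPM in control and 4211 to 4410 CPM in DKO. The part of any of these in the falls of the stem cell genes was not tested.

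Within the pulldowns, fewer members were called between genotypes than in input, and so was a smaller share of all genes tested. In J2 only Olfm4 was called, and it was lower in DKO. Among all genes tested in J2, 12.2% were called and 6.17% were called lower. In K1, Olfm4, Smoc2 and Ascl2 were called lower, where 27.1% of all genes were called and 13.9% were called lower. The median log2 fold change over the 10 members was -0.17 in J2 and -0.50 in K1, beside 0.03 and -0.02 over all genes tested. These comparisons use other libraries of the same animals as the input comparison.

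**Figure D3:**
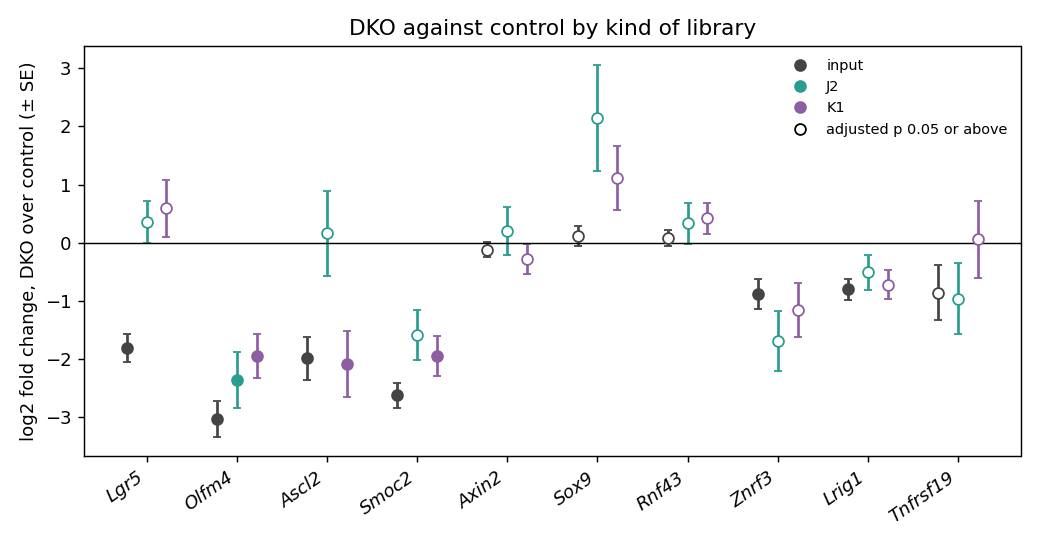
Log2 fold change, DKO over control, with its standard error for each gene in input, J2 and K1 libraries. Filled points passed an adjusted p of 0.05. Lgr5 is at -1.82 in input but at 0.35 in J2 and 0.59 in K1, whereas Olfm4 and Smoc2 lie below 0 in all 3 kinds of library.

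In J2, Olfm4 stood at 143 and 149 CPM in control and at 38.8 and 17.5 CPM in DKO, a log2 fold change of -2.37 (SE 0.48, adjusted p = 0.0417). This call was lost without control replicate 1 and without control replicate 2, with adjusted p up to 0.229. In K1, Olfm4 stood at 170 and 204 CPM in control against 64.2 and 31.1 CPM in DKO (-1.95, SE 0.38, adjusted p = 0.0116). DKO was below control in both antibodies without overlap.

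Smoc2 in K1 fell from 552 and 439 counts to 27 and 20, or from 29.8 and 27.8 CPM to 5.91 and 9.56 CPM (log2 fold change -1.95, SE 0.35, adjusted p = 0.00881). In J2 the Smoc2 value was -1.58 (SE 0.43, adjusted p = 0.0667), also with no overlap. It was called lower with no filter on low counts (adjusted p = 0.00545) and with all 12 libraries in 1 fit (0.00240). No other alternative that kept all animals called it. The K1 call of Ascl2 rested on few counts, 83 and 108 in control and 7 and 2 in DKO (-2.09, SE 0.57, adjusted p = 0.0339). It was lost under DESeq2, after thinning the libraries to equal depth, and without either control replicate.

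Lgr5, lower in DKO input, was not called in either pulldown. In J2 it had 201 and 183 counts in control and 65 and 59 in DKO, which after scaling came to 12.5 and 13.2 CPM and to 14.6 and 18.2 CPM. In K1 it stood at 9.33 and 10.4 CPM in control and 8.10 and 22.9 CPM in DKO. The log2 fold changes of 0.35 (SE 0.36, adjusted p = 0.519) and 0.59 (SE 0.49, adjusted p = 0.407) did not pass the test. Both DKO values were above control in J2, but they fell on both sides of it in K1. There the log2 fold change was -0.22 without DKO replicate 2 and 1.18 without DKO replicate 1.

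Sox9 gave the largest positive value of the members in J2, and it came from 1 animal. The J2 counts of Sox9 were 544 and 487 in control against 161 and 882 in DKO, or 33.8 and 35.3 CPM against 36.3 and 271 CPM. In K1 its level was 54.1 and 64.5 CPM in control against 53.0 and 206 CPM in DKO. Only DKO replicate 2 was high, and it was high with both antibodies, while its input stood at 54.2 CPM. The log2 fold changes of 2.15 in J2 (SE 0.91, adjusted p = 0.159) and 1.11 in K1 (SE 0.56, adjusted p = 0.175) were not called. The J2 value was called higher under DESeq2 (adjusted p = 0.0221), with no filter on low counts (0.00741) and with all 12 libraries in 1 fit (0.0470). No other alternative that kept all animals called it. Without DKO replicate 2 the J2 and K1 values were 0.16 and -0.099, and without DKO replicate 1 they were 2.91 and 1.75.

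The feedback inhibitors and Lrig1 did not pass the test in either pulldown. In J2, Rnf43 had a log2 fold change of 0.34 (SE 0.35), Axin2 of 0.20 (SE 0.41), Lrig1 of -0.51 (SE 0.30) and Znrf3 of -1.70 (SE 0.52). In K1 they were 0.42 (SE 0.26), -0.28 (SE 0.26), -0.73 (SE 0.25) and -1.16 (SE 0.47). Adjusted p-values ran from 0.0683 for Lrig1 in K1 to 0.747 for Axin2 in J2. Some of these values were called under alternatives: Znrf3 was called lower in J2 in 6 of 11 and in K1 in 3 of 11. The 6 in J2 include fits that left 1 DKO library. They also include a block on the replicate number, which does not pair animals (-1.82, adjusted p = 0.0324). Lrig1 was called lower in 4 of 11 in K1 and 2 of 11 in J2, and Axin2 and Rnf43 were each called higher in 1 of 11 in J2, without DKO replicate 2. Tnfrsf19 had 6 or fewer counts in every DKO pulldown, which is too few to show a difference.

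**Figure D4:**
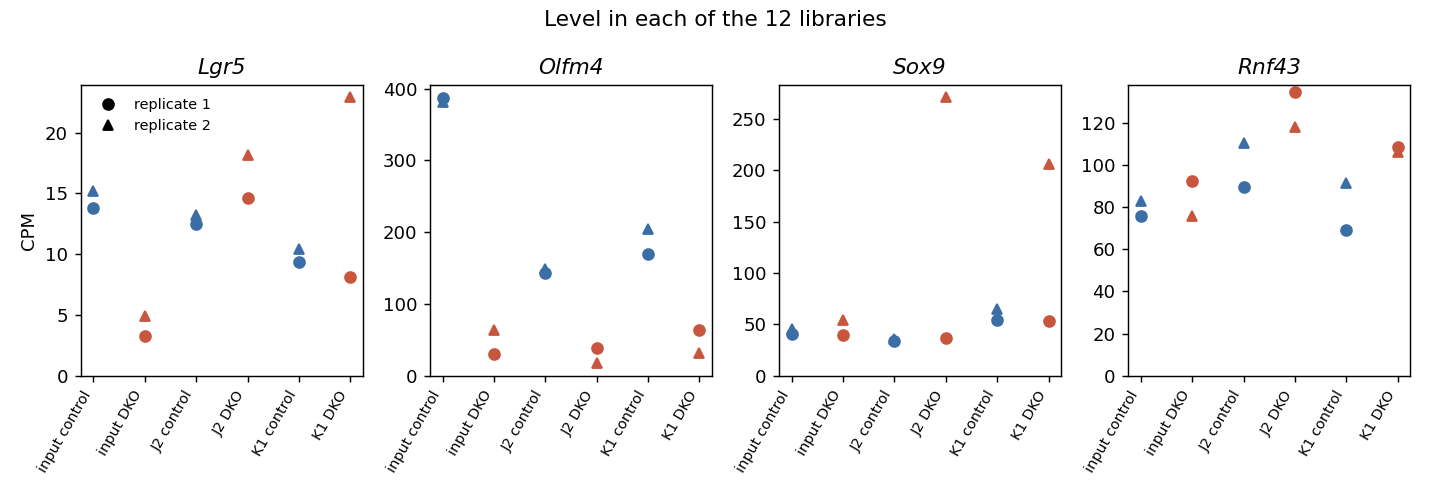
CPM of Lgr5, Olfm4, Sox9 and Rnf43 in each of the 12 libraries, with control in blue and DKO in red. Circles are replicate 1 and triangles replicate 2 of each genotype. Olfm4 is highest in the control inputs, and Sox9 is high only in the J2 (271 CPM) and K1 (206 CPM) libraries of DKO replicate 2.

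Pulldown was then compared with input of the same animals, which asks how strongly each transcript was recovered by an antibody relative to its level. The reported fit compared group means and did not pair the libraries of an animal. Fits with the animal as a block are among the alternatives. J2 and K1 bind double-stranded RNA, and 1 transcript can form it where stretches of its own sequence are complementary. The longest perfect inverted repeat of each member was read from its longest coding transcript in GENCODE M21 (GRCm38). Only perfect matches were sought, so longer arms with mismatches were not measured. Among 9414 coding genes the median length of such an arm was 12 bases, and the interquartile range was 11 to 13. Sox9, at 18 bases, and Lrig1, at 17, had the longest arms of the members, reached by 2.98% and 3.88% of those genes. The other 8 members had 10 to 13 bases. The arms of both genes lie in the 3′ UTR, and all letters are capitals because every base pairs with the other arm:
Sox9 arm at transcript bases 2680 to 2697: AAAGAAAGAAAGAAAAAA
Sox9 arm at transcript bases 3772 to 3789: TTTTTTCTTTCTTTCTTT
Lrig1 arm at transcript bases 4669 to 4685: TGGCACAGTGATGGCCT
Lrig1 arm at transcript bases 4706 to 4722: AGGCCATCACTGTGCCA
Lgr5, with an arm of 11 bases, was not unusual by this measure, since 76.9% of the genes reached it. A match of letters is a description and does not show that the arms pair in cells or that an antibody binds them.

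In control animals, 1 member was called between pulldown and input with J2 and 2 with K1. With J2 only Znrf3 was called, higher in the pulldown by 1.27 on the log2 scale (SE 0.37, adjusted p = 0.0348), where 29.8% of all genes were called and 15.2% were called higher. Scaling by library size alone moved the median of all genes from -0.07 to -0.44 and left Znrf3 at 0.90 and not called (adjusted p = 0.278), and Olfm4 was then called lower at -1.40. The Znrf3 call was also lost without either control replicate. The J2 values of the control animals, as log2 CPM of pulldown minus that of input, were 1.41 and 1.13 for Znrf3 and -1.07 and -0.98 for Olfm4.

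With K1, Axin2 was higher in the control pulldowns by 1.15 (SE 0.22, adjusted p = 0.00270) and Lrig1 by 0.90 (SE 0.23, adjusted p = 0.0107). Among all genes 39.8% were called here and 19.7% were called higher. With the animal as a block, Sox9 (0.80, adjusted p = 0.0167) and Znrf3 (0.57, adjusted p = 0.0453) were called as well. With the block and thinning to equal depth, neither Sox9 (0.41, adjusted p = 0.241) nor Znrf3 (0.26, adjusted p = 0.569) was called. Axin2 and Lrig1 lost their calls without control replicate 1 and without control replicate 2.

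In DKO animals 4 members were called with each antibody, and Lgr5 had the largest value of the 10 in both. With J2, Lgr5 was higher in the pulldown by 2.36 (SE 0.30, adjusted p = 0.00327), a 5.13-fold difference. Axin2 (1.15, adjusted p = 0.0375), Rnf43 (0.97, adjusted p = 0.0345) and Lrig1 (0.81, adjusted p = 0.0434) were also called higher. Of all genes 25.7% were called and 12.2% were called higher. With the animal as a block, Axin2 and Lrig1 were no longer called (adjusted p = 0.0674 and 0.0594). Without TMM scaling, Rnf43 (adjusted p = 0.0906) and Lrig1 (0.3503) lost their calls. With no filter on low counts, Rnf43 (0.1895), Lrig1 (0.2934) and Axin2 (0.0767) lost theirs. Lrig1 was not called with DESeq2-type size factors either (0.0597). Without DKO replicate 1, Axin2 was at 0.34 and Lrig1 at 0.42, neither called (adjusted p = 0.0842 and 0.0675). Without control replicate 1 or control replicate 2 none of the members was called.

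With K1, Lgr5 was higher in the DKO pulldowns by 1.99 (SE 0.42, adjusted p = 0.00563), and it was called in all 11 alternatives. Sox9 was higher by 1.60 (SE 0.45), Axin2 by 0.84 (SE 0.22) and Lrig1 by 0.84 (SE 0.24), with adjusted p-values of 0.0208, 0.0152 and 0.0222. Rnf43, at 0.55, was called only with the animal as a block (adjusted p = 0.0430) or with the block and thinning. Of all genes 35.6% were called with K1 and 14.6% were called higher. Without TMM scaling only Lgr5 was called, and 3 members were below 0. When all 12 libraries shared 1 fit, Sox9 (adjusted p = 0.110) and Axin2 (0.0593) were not called. Axin2 and Lrig1 lost their calls without control replicate 1, control replicate 2 or DKO replicate 1, and Sox9 lost its call without control replicate 1. Without DKO replicate 2 the Sox9 value was 0.71.

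The 2 DKO animals gave opposite values for Olfm4. With J2, pulldown minus input was 0.80 in DKO replicate 1 and -1.54 in DKO replicate 2, and with K1 it was 1.36 and -0.91. In control animals all 4 values lay between -1.07 and -0.55. Sox9 also split, at 0.33 and 2.62 with J2 and 0.71 and 2.02 with K1, the high value in each pair being that of DKO replicate 2. In the DKO J2 libraries the epithelial gene Cdh1 stood at 1939 CPM in replicate 1 and 384 CPM in replicate 2, so libraries of that animal differed in more than the members. The part of this difference in the values above was not tested.

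**Figure D5:**
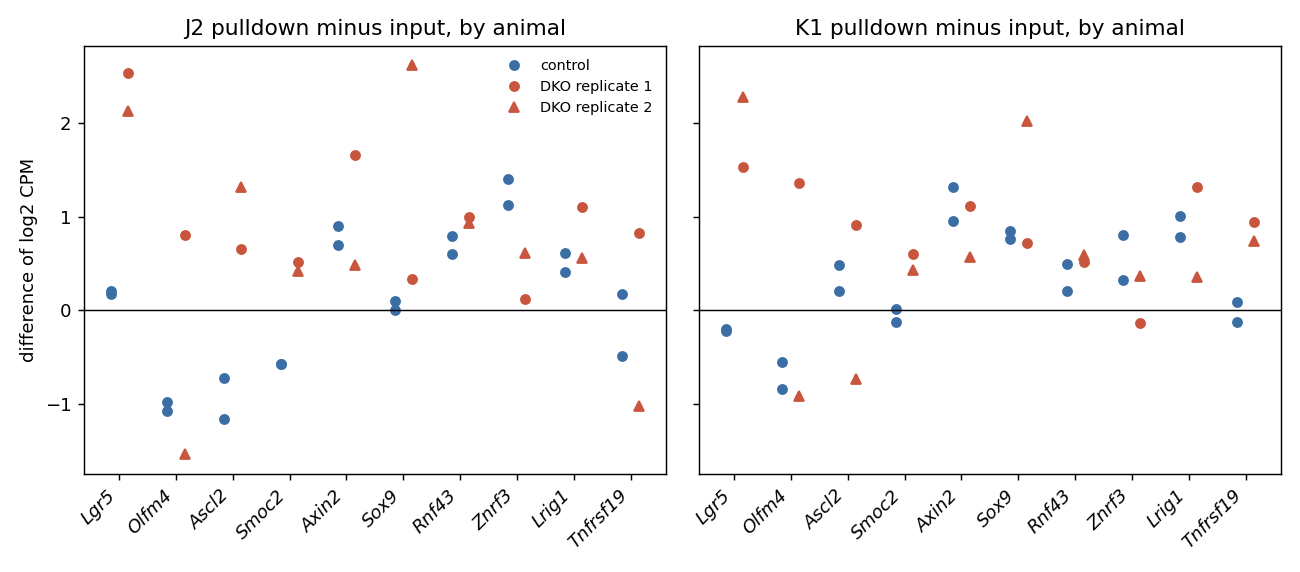
Log2 CPM of pulldown minus input in the same animal for each gene, J2 on the left and K1 on the right. Blue circles are control animals, and red circles and triangles are DKO replicates 1 and 2. The DKO values of Lgr5 (1.53 to 2.53) lie above the control values (-0.22 to 0.21) with both antibodies, while the DKO values of Olfm4 lie on both sides of control.

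The difference of enrichment between genotypes was tested as an interaction. In the reported fit, which did not pair the libraries of an animal, Lgr5 was the only member called, and it was called with both antibodies. With J2, pulldown minus input for Lgr5 was 0.21 and 0.18 in the control animals and 2.53 and 2.13 in the DKO animals. With K1 the control animals gave -0.22 and -0.20 and the DKO animals 1.53 and 2.28. Every DKO value exceeded every control value. The difference was 2.16 with J2 (SE 0.40, adjusted p = 0.0416) and 2.20 with K1 (SE 0.54, adjusted p = 0.0451).

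Few genes were called in these tests: 2.71% of all genes with J2, with 0.772% called higher, and 5.47% with K1, with 1.37% called higher. With the animal as a block the J2 difference of Lgr5 was 2.19 and its adjusted p 0.0713, so the call was lost, while the K1 difference of 2.20 had an adjusted p of 0.00256. Without either control replicate both calls were lost, with adjusted p from 0.387 to 0.739, and neither passed without TMM scaling (0.0915 with J2 and 0.0773 with K1). The K1 call was lost as well when all 12 libraries shared 1 fit (0.0837). The 2 tests share the input libraries. Counts of Lgr5 in the DKO libraries were low throughout, at 33 and 56 in input, 65 and 59 in J2 and 37 and 48 in K1.

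On the CPM scale, the groups of Lgr5 lay furthest apart in input. Lgr5 averaged 14.5 CPM in control input ± 0.968 and 4.09 CPM in DKO input ± 1.16 (SD, n = 2), against 12.9 ± 0.535 and 16.4 ± 2.48 CPM in J2. The sum of the 13 mesenchyme markers was higher in the DKO pulldowns than in the control pulldowns, with Col1a1 a large part of it. By library size alone, the markers summed to 10.5 to 28.9 CPM in control J2 and 44.2 to 141 CPM in DKO J2. In K1 the sums were 11.3 to 51.4 CPM in control and 110 to 180 CPM in DKO. With TMM scaling, Col1a1 stood at 0.808 and 9.56 CPM in control J2 and 89.5 and 12.9 CPM in DKO J2. In K1, Col1a1 stood at 1.08 and 17.0 CPM in control and 108 and 49.2 CPM in DKO. Rspo3 was at 0 in both J2 groups, and Lum, Gli1 and Foxl1 were at 0 in both K1 groups. The 8 enteroendocrine markers, all detected, summed to 59.0 to 65.5 CPM in control J2 and 136 to 158 CPM in DKO J2, and to 77.5 to 99.5 CPM in control K1 and 192 to 224 CPM in DKO K1. The part of these markers in the Lgr5 difference was not tested. With the animal as a block and all libraries thinned to equal depth, the Lgr5 difference was 2.36 with J2 (adjusted p = 0.0708) and 2.83 with K1 (adjusted p = 0.0119).

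The other members did not pass the interaction test. Both DKO animals lay above both controls for 5 of the 10 members with J2 and 4 of the 10 with K1, Lgr5 included, beside 27.4% and 20.4% of all genes tested. Ascl2 (2.12, SE 0.83) and Smoc2 (1.03, SE 0.44) were above 0 with J2 and each had DKO values above control without overlap, but their adjusted p-values were 0.159 and 0.183. Sox9 was at 1.98 with J2 (SE 0.96, adjusted p = 0.235), also without overlap, but its DKO animals gave 0.33 and 2.62. With K1, Ascl2 was at -0.21 and Smoc2 at 0.51. Znrf3 was below 0 with both antibodies, at -0.84 (SE 0.55) and -0.47 (SE 0.52). Over the 10 members the median difference was 0.53 with J2 and 0.35 with K1, beside 0.0022 and -0.20 over all genes tested.

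Among other crypt base genes, Cdk6, a kinase of the cell cycle, fell in J2 by 3.29 on the log2 scale (adjusted p = 0.0287). Its J2 enrichment was lower in DKO by 2.91 on the log2 scale (adjusted p = 0.0291) and its K1 enrichment by 1.78 (adjusted p = 0.0157). The K1 enrichment of Hopx, a homeodomain protein used as a marker of reserve stem cells, was lower by 1.86 (adjusted p = 0.0408), and that of the Wnt co-receptor gene Lrp6 by 1.26 (adjusted p = 0.0481). With the animal as a block the J2 difference of Cdk6 was -2.91 and its call was lost (adjusted p = 0.0712), and edgeR then called 0 genes in that test, with 4074 at an unadjusted p under 0.05. The K1 differences of Cdk6, Hopx and Lrp6 passed with the block (adjusted p = 0.00178, 0.00725 and 0.0190). All of these calls, with J2 and K1, were lost without control replicate 1 and without control replicate 2, and the K1 calls also when all 12 libraries shared 1 fit. Hopx and Lrp6 also lost theirs with DESeq2-type size factors (0.0648 and 0.0797), and Hopx without DKO replicate 2 (0.0515).

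Across all 12 libraries, the genes whose log2 CPM was most like that of Lgr5 were Cdca2 (Pearson r 0.904), Rab43 (0.902), Kifc1 (0.900), Zfp111 (0.894) and Cdk5rap2 (0.891). These were the highest of 9741 genes with a mean of at least 50 counts, whose median r was 0.035. The members' own r with Lgr5 ran from 0.17 for Olfm4 to 0.56 for Lrig1, with Ascl2 and Tnfrsf19 below the count minimum. The 12 points come from 4 animals and share libraries and depth, so r is a description only.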

How the data were processed

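The deposited files hold whole-number counts per gene, 1 file per library, made without using strand per the labels. The libraries carried unique molecular identifiers per the labels; whether duplicates were removed before counting was not given in the sources used here, so a count may be a read or a molecule. The submitters' processing notes list STAR 2.7.10b, UMI-tools 1.1.4 and HTSeq 2.0.2 with the builds mm10 and GRCm38.p4, but not their settings; the annotation was not given in the sources used here. Reads of overlapping or antisense genes cannot be separated: 5.17% of the exonic bases of Olfm4, 3.80% of Axin2 and 2.58% of Lrig1 are shared with another gene. The 5 closing rows (reads outside genes, ambiguous or aligned to several places) were left out; reads outside genes were 6.76% to 27.0% of those listed. Identifiers matched GENCODE M21 for 48058 of 48526 rows without the version.

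Counts were tested with edgeR 4.0.16 (R 4.3.3; quasi-likelihood, TMM scaling, filterByExpr with a count minimum of 10). Genotypes were compared within each kind of library by fitting its 4 libraries alone (residual df 2). Enrichment was fitted per antibody on 8 libraries, pulldown and input together, for each genotype and its difference between genotypes (residual df 4). All 10 members passed the filter in every comparison. Per-animal log2 CPM used a prior count of 2. The code was tested on simulated data. Alternatives were no TMM, other size factors, DESeq2 1.42.0, no filter, 1 fit of all 12 libraries, an animal block, thinning, and leaving out each animal.

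The labels' animal identifiers tie input, J2 and K1 of an animal together. Deviations from the group mean of a pulldown and its input correlated at 0.553 and 0.568 in control and 0.373 and 0.417 in DKO (J2 and K1). Same-numbered control and DKO mice are different animals (-0.154 to 0.0387). Replicates were separate animals, and their counts differed by a chi-square per df of at least 11. The members, the gene lists and the naming rule were chosen with earlier results of these data known. Genes outside the members are those with the largest change, up to 3 per list and comparison, among called genes that averaged 50 counts or more and did not overlap, and the 5 genes most correlated with Lgr5; Kat2a, Kat2b and 5 markers are named as checks. The summed level of the leukocyte markers is not reported here.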

Additional observations from a re-analysis of the deposited data

Results flagged for a closer look

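Lgr5 was singled out because its recovery by the antibodies relative to input differed between genotypes by a test of the difference itself. DKO minus control was 2.16 on the log2 scale with J2 (edgeR adjusted p = 0.0416) and 2.20 with K1 (adjusted p = 0.0451), and both DKO animals lay above both control animals each time. The direction was the same in all 11 alternatives for each antibody, from 1.86 to 2.41 with J2 and from 1.79 to 2.83 with K1, but the call held in 6 of 11 and 7 of 11 of them.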

How the results depend on the processing

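Of 970 values of single members under alternatives, 836 kept their side of the threshold. Of these 836, 50 changed sign without being called in either fit. Another 72 passed the threshold only under the alternative, 59 passed it only in the reported fit, and 3 reversed. The reversed values were all of Olfm4: J2 against input in DKO was 0.81 without DKO replicate 2, K1 against input in DKO was -0.99 without DKO replicate 1, and the J2 difference of enrichment was -0.54 without DKO replicate 1. Depth limits Tnfrsf19 and Ascl2 most, and the causes of the changes in count below were not tested.
Counts of genes called with edgeR at an adjusted p under 0.05 moved most. For DKO against control, 1 fit of all 12 libraries called 1675 genes in input instead of 5421 and 5993 in J2 instead of 1609, where DESeq2 called 2884 and no filter 4273. The members called in J2 were then 3 with DESeq2, 4 with no filter and 4 with all 12 libraries, instead of 1, and in K1 they were 5 with no filter and 5 with all 12 libraries, instead of 3. Without TMM the share of called genes that were higher went from 52.4% to 42.1% in input, from 49.5% to 32.6% in J2 and from 48.6% to 27.4% in K1. For J2 against input in control it went from 51.1% to 34.7%, and in DKO from 47.7% to 21.1%. For K1 it went from 49.6% to 36.0% in control and from 41.1% to 22.3% in DKO. For the differences of enrichment it went from 28.5% to 10.4% with J2 and from 25.1% to 13.1% with K1, where other size factors gave 39.2% and all 12 libraries 49.2%.

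For the replicate block, pairing holds between libraries of an animal. With the block, the J2 difference of enrichment had 0 genes called instead of 432, with 4074 at an unadjusted p under 0.05 in edgeR, and 0 members called; with the block and thinning it had 0 genes, 2984 at an unadjusted p under 0.05, and 0 members. The K1 difference had 1912 genes instead of 870 with the block, and 2 members with the block and thinning. Pulldown against input with the block and thinning called 2824 genes instead of 4746 (J2, control), 2242 instead of 4088 (J2, DKO) and 3869 instead of 6324 (K1, control). Members called with the block were 2 instead of 4 (J2, DKO; 2 also with thinning) and 4 instead of 2 (K1, control). Replicate numbers shared by control and DKO do not pair animals; a block on them gave 2 members instead of 1 in J2 and moved the Ascl2 value in K1 to an adjusted p of 0.0503.

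The J2 difference of enrichment had 672 genes and 0 members without TMM, 1980 genes with DESeq2, 2453 genes and 2 members with no filter, and 899 genes with all 12 libraries. The K1 difference had 1309 genes and 0 members without TMM, 523 genes with other size factors, 1763 with no filter, and 59 genes and 0 members with all 12 libraries. Members called in J2 against input were 2 with DESeq2 in control instead of 1, and in DKO 2 without TMM and 2 with no filter instead of 4. In K1 against input of DKO they were 1 without TMM and 2 with all 12 libraries instead of 4.

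Leaving out 1 animal at a time, with the lone sample assumed to vary like the other groups, gave these ranges. Input had 3615 to 6227 genes and 5 to 7 members, J2 177 to 8635 genes and 0 to 6 members, and K1 1150 to 5819 genes and 2 to 6 members for DKO against control. J2 against input had 0 to 10140 genes and 0 to 7 members in control and 346 to 7790 genes and 0 to 5 members in DKO. K1 against input had 281 to 9191 genes and 0 to 5 members in control and 3005 to 5970 genes and 1 to 5 members in DKO. The difference of enrichment had 0 to 6990 genes and 0 to 6 members with J2 and 0 to 3803 genes and 0 to 2 members with K1. Where 0 genes were called in edgeR, 1063 to 2262 had an unadjusted p under 0.05. In J2 and K1 the low ends came from leaving out a control animal. For Olfm4 the range was -1.69 to 0.81 in J2 against input of DKO, -0.99 to 1.37 in K1 against input of DKO and -0.54 to 1.83 for the J2 difference of enrichment.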
